A study of Arabidopsis thaliana with 4 samples.

Results

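The GATL (galacturonosyltransferase-like) genes of Arabidopsis thaliana encode predicted glycosyltransferases of the cell wall. The 10 members, GATL1 to GATL10, were taken by locus identifier and all 10 were found among the 27444 coding genes of the nuclear chromosomes. They were examined in a chromatin immunoprecipitation and sequencing (ChIP-seq) study of the growth repressor RGA in whole seedlings grown for 10 days in continuous light. The groups were FLAG-rga11 sly1 dP, labelled as tagged mutant RGA, FLAG-RGA sly1 dP, labelled as tagged wild-type RGA, and a control for each. The labels call the control of the mutant sly1 dP and the control of the wild type RGA sly1 dQ, so every group carries sly1. They describe neither the promoter of the tagged genes nor the number of transgenic lines. Each of the 4 groups had 1 library, so no difference between groups could be tested.

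A member was counted as marked when a called peak had its summit inside the gene or at most 1 kb outside it. The summits described here were selected on the authors' peak calls, that is on their fold, p and q, and GATL6 and GATL10 were already known to hold strong peaks when the family was taken up. The counts are therefore a description.

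RGA belongs to the DELLA proteins, nuclear growth repressors that the hormone gibberellin removes through the F-box protein SLY1. DELLA proteins reach chromatin through transcription factors rather than by a DNA-binding domain of their own. The GATL proteins are shorter relatives of the GAUT proteins, a family that includes the galacturonosyltransferases that build the pectin backbone homogalacturonan. GATL1, also named PARVUS, is required for normal xylan in secondary walls. GATL5 is required for normal pectin in seed coat mucilage. The reactions catalysed by most other members are not established, and GATL4 and GATL10 are also listed under galactinol synthase names in RefSeq.

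The authors' peak lists held 505 peaks for the FLAG-rga11 mutant and 6116 for the FLAG-RGA wild type. Each peak carries the authors' fold, the ratio at its summit of ChIP to control coverage, and a −log10 q. Both values rank peaks within a list only. The fold and p of the peaks were fitted with ChIP fragments scaled by 0.470 in the mutant call and by 1 in the wild-type call. Fragment counts below are before that scaling. Mean ChIP coverage was taken as the background of the call divided by this scale. It was 15.3 fragments per base in the mutant and 14.5 in the wild type. The control level of the mutant call was 7.21 at genome background, against 14.5 in the wild-type call. The peak names of the mutant list and the labels give its control differently. Which library served was not settled, and every mutant fold depends on it.

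Of the 10 GATL genes, 2 were marked in the mutant list and 7 in the wild-type list. Over all coding genes 1.79% were marked in the mutant list and 23.2% in the wild-type list. The 2 mutant-marked members, GATL9 and GATL10, were also wild-type-marked. Of the 491 coding genes marked in the mutant list 361 were too, so this was usual among mutant-marked genes. Over all coding genes 1.32% were marked in both. GATL1, GATL3, GATL6, GATL7 and GATL8 were marked in the wild-type list alone. GATL2, GATL4 and GATL5 were marked in neither. Members were 1566 to 2926 bp long, and coding genes in that range of length were marked in 1.93% of cases in the mutant list and 25.0% in the wild-type list.

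**Figure D1:**
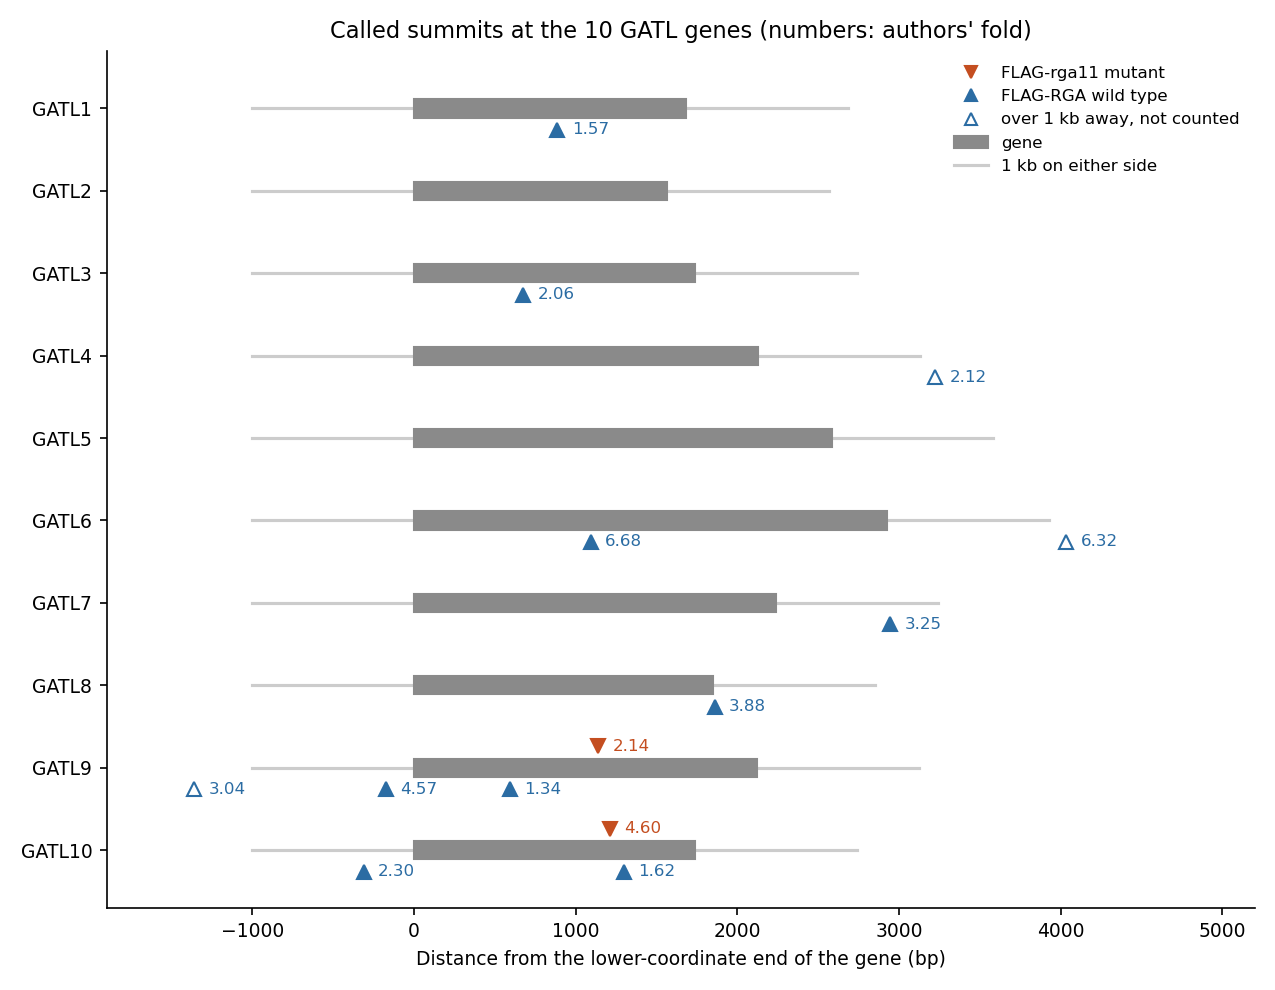
Each row is a GATL gene (grey bar) with 1 kb on either side, and the x axis is the distance in bp from its lower-coordinate end. Triangles above the bar are FLAG-rga11 summits and those below are FLAG-RGA summits, each with the authors' fold; open triangles lie over 1 kb from the gene and were not counted. Mutant summits stand inside GATL9 and GATL10 alone, and wild-type summits stand at 7 genes.

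GATL10 (AT3G28340) held the strongest mutant peak of the family. On chromosome 3 (TAIR10) this peak ran from 10589501 to 10590370 with its summit at 10590158, inside the gene and 527 bp from the higher-coordinate end. Its fold was 4.60 with a −log10 q of 12.0, the 4th highest fold among 505. There were 86 ChIP fragments over the summit, 5.61 times the background of the call. The control stood at 1.11 times background, close to the genome level.

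The wild-type list also had a peak at the same place, with a fold that was low within its own list. It ran from 10590131 to 10590425, overlapped the mutant peak by 240 bp, and had its summit 87 bp away at 10590245. The fold was 1.62 with a −log10 q of 4.10, and 3.58% of wild-type peaks had a lower fold. ChIP coverage over that summit was 114 fragments, 7.89 times background. The control of the wild-type call stood at 4.83 times background there. The 2 folds at GATL10 thus rest on unlike control levels, and the part of the control library in the difference was not tested. Another wild-type summit lay 312 bp outside the lower-coordinate end at 10588635, with a fold of 2.30, a −log10 q of 11.9 and 112 fragments. That summit is inside the neighbouring gene AT3G28335 and within 1 kb of AT3G28330, so it cannot be given to GATL10 alone.

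GATL9 (AT1G70090, LGT8 in RefSeq) was marked in both lists at different places. The mutant summit on chromosome 1 was at 26401831, 984 bp inside the higher-coordinate end, in a peak from 26401801 to 26401964. Its fold was 2.14 with 104 fragments, 6.78 times background, over a control at 3.10 times background. Its −log10 q of 3.09 was close to the lowest value in the mutant list, 3.01. It is the weaker of the 2 mutant GATL peaks, and it overlapped no wild-type peak.

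The strongest wild-type summit of GATL9 lay outside the gene. It was at 26400518, 176 bp beyond the lower-coordinate end, with a fold of 4.57, a −log10 q of 44.3 and 141 fragments. This fold was the 130th highest of the 6116 wild-type peaks, and the control there was at 2.08 times background. A further wild-type summit stood inside the gene at 26401288, 594 bp from the same end. It had more fragments, 233, but a fold of 1.34, over a control at 12.0 times background, and 0.425% of wild-type peaks had a lower fold. The mutant peak was separated from this peak by 491 bp. A wild-type peak at 26399331 with a fold of 3.04 was 1363 bp outside GATL9 and was not counted, although no coding gene was nearer.

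GATL6, GATL8 and GATL7 carried strong wild-type peaks and no mutant peak. GATL6 (AT4G02130) had its summit at 945417 on chromosome 4, inside the gene and 1093 bp from the lower-coordinate end, in a peak of 215 bp. Its fold of 6.68 was the 7th highest of the wild-type list, with a −log10 q of 56.4, 124 fragments and a control at 1.23 times background. A peak of nearly the same strength stood beyond the gene's higher-coordinate end. Its summit at 948358 had a fold of 6.32 and 111 fragments, and it lay 1109 bp from GATL6 and 240 bp from AT4G02140. It was therefore counted for AT4G02140 and not for GATL6. The nearest mutant summit was 85928 bp from GATL6.

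GATL8 (AT1G24170, LGT9 in RefSeq) had its summit at 8559074 on chromosome 1, 8 bp outside the higher-coordinate end. The peak, from 8559000 to 8559243, spanned that end. Its fold was 3.88 with a −log10 q of 44.4, 171 fragments and a control at 2.99 times background. GATL7 (AT3G62660) had its summit at 23175700 on chromosome 3, 707 bp outside the higher-coordinate end, with a fold of 3.25, a −log10 q of 23.0 and 114 fragments. The response regulator gene RR20 (AT3G62670) lies within 1 kb of this summit as well, but GATL7 is nearer. The nearest mutant summits were 20342 bp from GATL8 and 63224 bp from GATL7.

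GATL1 and GATL3 had wild-type peaks of low fold inside the gene. GATL1 (AT1G19300), the PARVUS gene of xylan synthesis, had its summit at 6671981 on chromosome 1, 796 bp from the higher-coordinate end. The peak was the widest of the wild-type GATL peaks at 646 bp. Its fold was 1.57 with a −log10 q of 6.62 and 204 fragments, over a control at 8.98 times background. GATL3 (AT1G13250) had its summit at 4529158, 673 bp from the lower-coordinate end, with a fold of 2.06, a −log10 q of 6.16, 77 fragments and a control at 2.54 times background. Both folds were below the wild-type median of 2.37.

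The surroundings of GATL3 held a site that both lists shared. The mutant summit nearest to GATL3 was at 4524134, 4351 bp away, with a fold of 4.29 that was the 11th highest of the mutant list. A wild-type summit with a fold of 3.76 stood 13 bp from it. The nearest coding gene to this site is RTFL17 (AT1G13245), at 1280 bp, so by the 1 kb limit it belongs to no gene. For GATL1 the nearest mutant summit was 25520 bp away, inside AT1G19380. Such sharing was not particular to GATL3. The nearest mutant peaks to GATL1, GATL2, GATL4, GATL7 and GATL8 also overlapped a wild-type peak, and those to GATL5 and GATL6 did not. Of all mutant peaks 56.6% did.

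No summit was counted at GATL2, GATL4 or GATL5. GATL4 (AT3G06260) fell just outside the limit, as its nearest wild-type summit was 1097 bp away inside AT3G06270, with a fold of 2.12; the farthest summit counted for any member was that of GATL7 at 707 bp. For GATL2 (AT3G50760) the nearest wild-type summit was 2600 bp away with a fold of 2.33. For GATL5 (AT1G02720), the seed mucilage gene, it was 2920 bp away inside AT1G02700, with a fold of 2.18. The nearest mutant summits were 12502 bp from GATL2, 68007 bp from GATL4 and 26151 bp from GATL5. These 3 genes therefore had no called summit within 1 kb in either list, which does not show that no protein was there. The wild-type peak near GATL4 did reach within 1 kb with its edge.

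**Figure D2:**
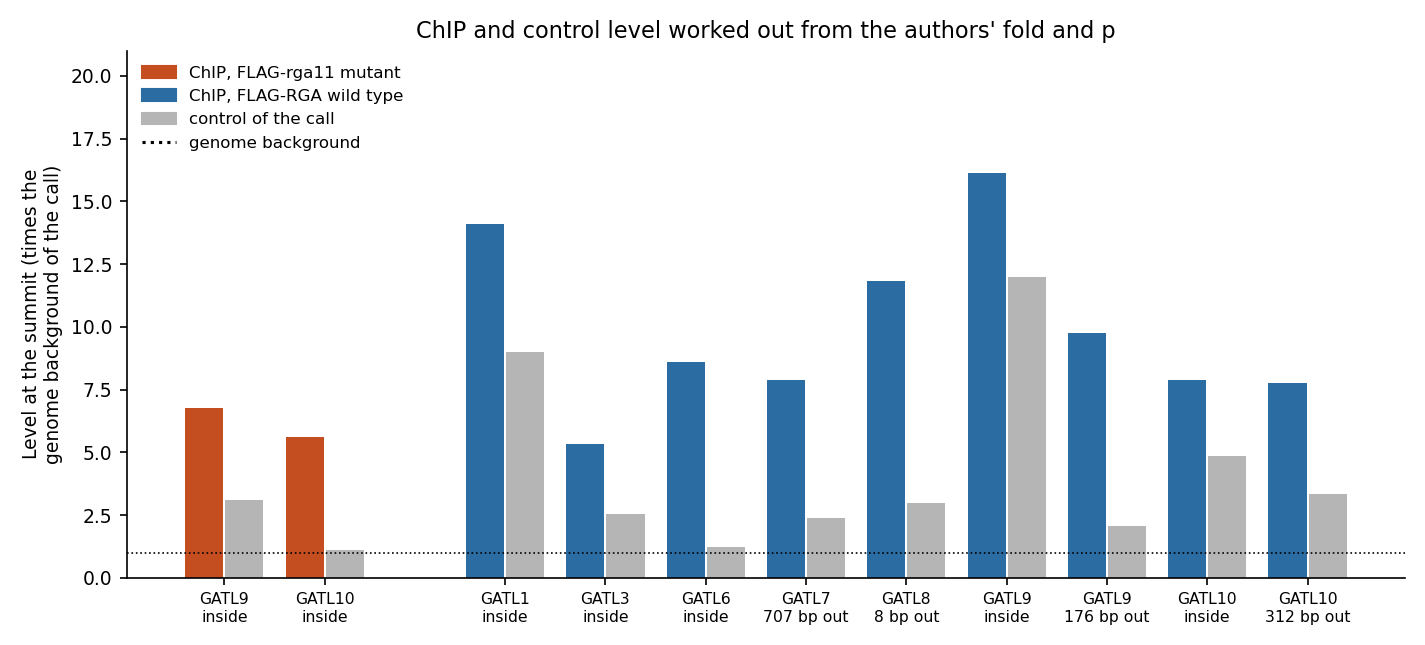
Bars give the ChIP level (colour) and the control level (grey) at each counted GATL summit, in times the genome background of its call, with the FLAG-rga11 summits left of the FLAG-RGA summits. The control is near background at the mutant GATL10 summit (1.11) and the wild-type GATL6 summit (1.23), and highest at the wild-type summits inside GATL9 (12.0) and GATL1 (8.98).

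Control levels differed widely between the GATL summits. The control level is the higher of the caller's local and genome-wide estimates, so it is at least 1 times background at every peak. At the 2 mutant GATL summits it was 1.11 and 3.10 times background, and over all mutant peaks the median was 2.50. At the 9 wild-type GATL summits it ran from 1.23 to 12.0 with a median of 2.99, and the median over all wild-type peaks was 1.63. Of the 9 summits 1 was at most 2 times background, whereas 63.2% of all wild-type peaks were. The summit with the most ChIP fragments in the family, 233 inside GATL9, had the lowest fold, 1.34. The order of the 9 folds is therefore not the order of their ChIP fragments. The part of the control level in these folds was not tested.

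The wild-type GATL peaks were also set side by side by position. The 5 summits inside a GATL gene had folds of 6.68 at GATL6, 2.06 at GATL3, 1.62 at GATL10, 1.57 at GATL1 and 1.34 at GATL9. The 4 summits outside had folds of 4.57 at GATL9, 3.88 at GATL8, 3.25 at GATL7 and 2.30 at GATL10. GATL6 alone stood above the outside summits, and the other 4 inside summits were all below them. The control inside was at 1.23 times background at GATL6, 2.54 at GATL3, 4.83 at GATL10, 8.98 at GATL1 and 12.0 at GATL9. Outside it ran from 2.08 to 3.33, so the inside summits lay on both sides of that range and GATL3 lay within it. Over all wild-type peaks 65.3% of summits were inside a coding gene, with a median fold of 2.22 against 2.81 outside all coding genes. That split differs from the one used for the GATL summits, as the outer GATL10 summit lies inside the coding gene AT3G28335. In the mutant list both GATL summits were inside the gene, and 75.6% of all mutant summits were inside a coding gene. The gene table used gives no strand, and the 2 ends of a gene are named by coordinate alone.

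**Figure D3:**
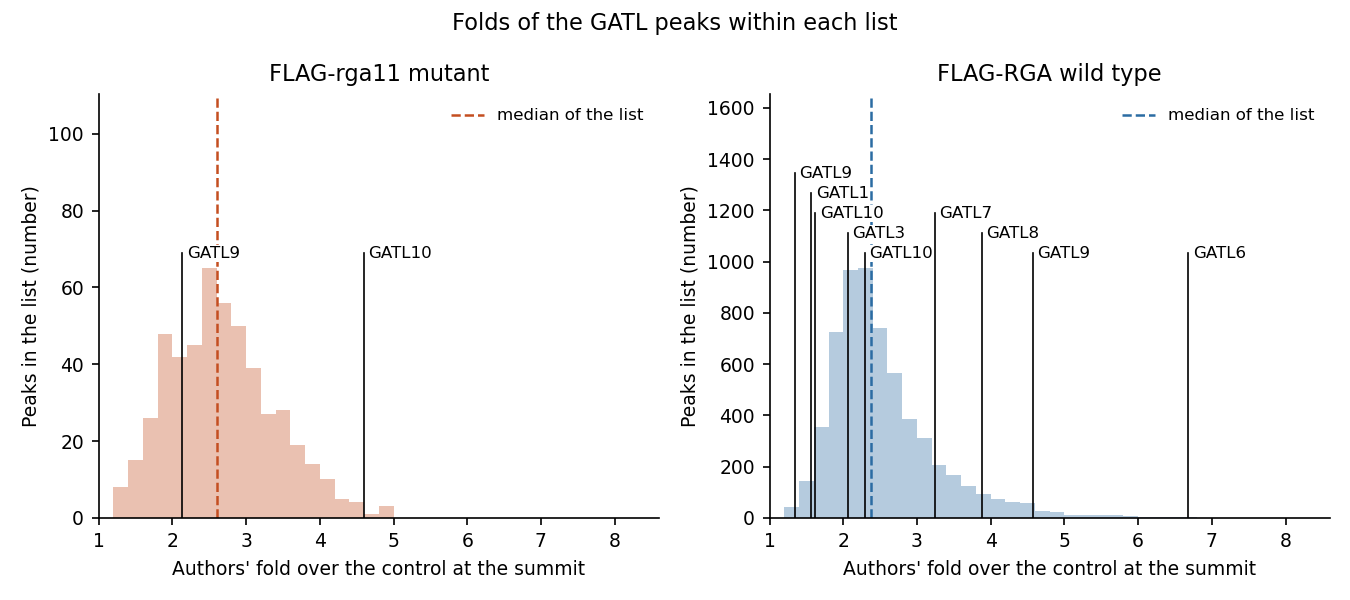
Histograms show the authors' fold of all peaks in the FLAG-rga11 list (left) and the FLAG-RGA list (right), with a vertical line for each counted GATL peak and a dashed line at the median of the list. GATL10 stands near the top of the mutant list (4.60) and GATL6 near the top of the wild-type list (6.68), while 5 of the 9 wild-type GATL peaks lie below the median of 2.37.

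Within the wild-type list the members spread over nearly the whole range of folds. By the best peak of each gene, GATL6 was 3rd of 6368 marked genes, GATL9 was 96th and GATL8 was 309th. GATL7 exceeded 87.9% of marked genes, GATL10 43.4%, GATL3 23.2% and GATL1 1.73%. The GATL10 value rests on the summit inside AT3G28335. The wild-type summit inside GATL10 had a fold of 1.62, and 3.58% of wild-type peaks had a lower fold. In the mutant list GATL10 was 6th of 491 marked genes and GATL9 388th. The member with the highest fold thus differed between the lists. GATL9 and GATL10 each had more than 1 wild-type summit, 770 and 1610 bp apart. Of the 6368 coding genes marked in the wild-type list 1093 had more than 1, which is 3.98% of all coding genes. Of the 2 GATL10 summits, 1 lies inside AT3G28335. No member had more than 1 mutant summit, and 0.244% of all coding genes did.

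Coverage after scaling differed between the calls. Before scaling, mean ChIP coverage was 15.3 fragments per base in the mutant and 14.5 in the wild type. With mutant ChIP fragments scaled by 0.470, the background of the mutant call was 0.499 times that of the wild-type call. Each wild-type GATL peak was therefore scaled to the mutant call, with its control scaled alike, and its −log10 p was set beside 6.03, the lowest in the mutant list. The GATL6 peak would have had 30.6, the GATL8 peak 24.9, the outer GATL9 peak 24.8, the GATL7 peak 13.5 and the outer GATL10 peak 7.72. These 5 values are above the lowest listed one, and no mutant peak overlapped these sites. The values follow from the fold and p on which the wild-type peaks were called, so they describe the calls and do not test why a mutant call is missing.

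At the other 4 wild-type sites the scaled value was below the lowest listed one. The scaled −log10 p was 4.93 at GATL1, 4.74 at GATL3, 3.45 at the inner GATL10 peak and 3.0 at the inner GATL9 peak. Over the whole wild-type list 2178 of 6116 peaks (35.6%) would have been above the value. The scaling takes the control of the wild-type call as a guide to that of the mutant call. At the inner GATL10 site that did not hold, since the control was at 1.11 times background in the mutant call and 4.83 in the wild-type call. With every control set to background, all 9 would have been above the value, with 77.6 at GATL1 and 15.9 at GATL3. That outcome was fixed in advance and decides nothing. ChIP was at least 5.33 times background at each of the 9 summits, and a site at background needs a fold of 2.93 in the mutant call. The part of coverage in the missing mutant calls was not tested.

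**Figure D4:**
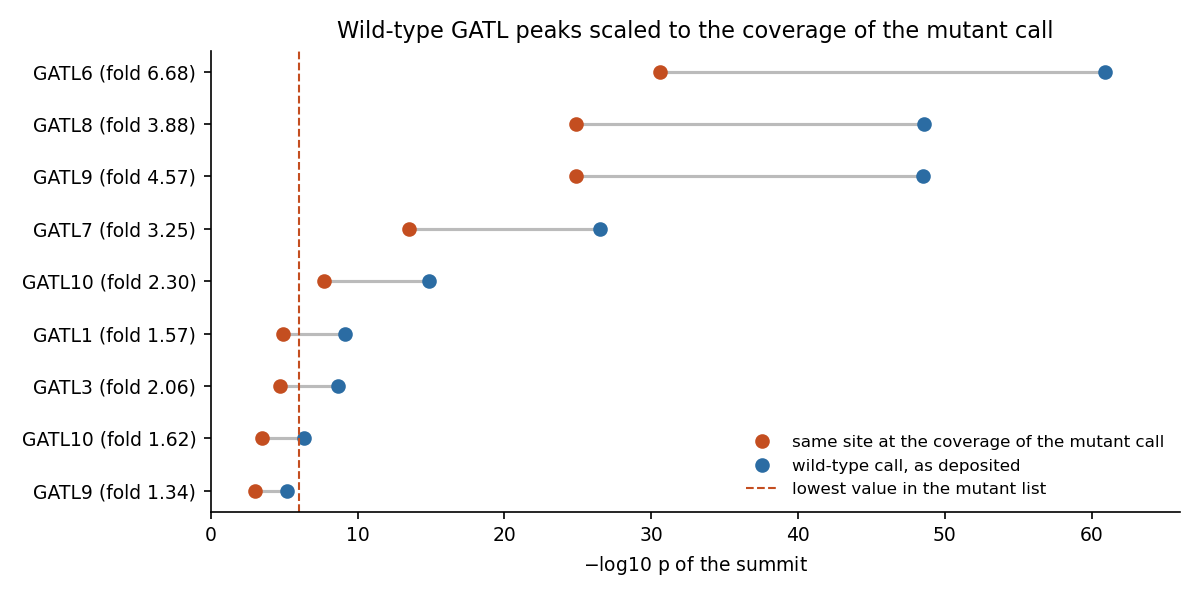
For each wild-type GATL peak, the orange point is the −log10 p of the same site at the scaled coverage of the mutant call. The blue point is the deposited −log10 p of the wild-type call, and the dashed line is the lowest −log10 p of the mutant list, 6.03. The upper 5 sites, from GATL6 to the outer GATL10 peak, stay right of the line after scaling, and the lower 4 fall left of it.

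Of the 2 mutant GATL peaks 1, that of GATL10, overlapped a wild-type peak. Of all mutant peaks 56.6% did, a share near that of the GATL peaks. In the other direction 1 of 9 wild-type GATL peaks overlapped a mutant peak, where 4.73% of all wild-type peaks did.

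Related genes of pectin, xylan and galactinol synthesis were counted in the same way, in 5 lists with 51 genes. None of the 51 was marked in the mutant list, where the background share was 1.79%. In the wild-type list 18 of 51 (35.3%) were marked beside the background of 23.2%, and the highest peak of none of these 18 overlapped a mutant peak. Of the 15 GAUT genes, a family that includes the pectin galacturonosyltransferases, 4 were marked in the wild type. GAUT6 and GAUT3 had folds of 2.19 each, and GAUT15 had 1.92; GAUT9 had 1.77. That share, 26.7%, is near the background.

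Among 10 genes of xylan synthesis 6 (60%) were marked in the wild type, where 23.2% of all coding genes were. F8H, a homologue of the xylan gene FRA8, was highest with a fold of 2.95, a −log10 q of 29.6 and 170 fragments. IRX10L, a homologue of the xylan synthase gene IRX10, had a fold of 2.55, and IRX9L and IRX15 each had 2.4. The remaining marked genes were IRX14L and IRX10. Among 10 other genes of pectin synthesis 3 (30%) were marked, a share near the background: GAE1 (3.40), QUA3 (2.29) and ARAD2 (1.87). GAE1 encodes a UDP-glucuronate epimerase that supplies the galacturonic acid donor, and its summit lay 86 bp outside the gene with a −log10 q of 28.8.

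Of the 8 galactinol synthase genes, which start the raffinose pathway, GOLS1 (2.31), GOLS2 (2.18) and GOLS3 (1.77) were marked in the wild type. That is 37.5%, beside 23.2% of all coding genes. Of the 8 GUX and PGSIP genes, which include the enzymes that add glucuronic acid to xylan, PGSIP7 (2.39) and PGSIP8 (2.13) were marked. Their share, 25%, is near the background. By the best peak of each gene, none of the 51 had a wild-type fold as high as those of GATL6, GATL9 or GATL8. The inner GATL9 peak had a fold of 1.34 only. GATL6 was already known to hold a strong peak when the family was taken up, so this comparison is a description and sets no family apart. GAE1 alone exceeded GATL7.

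**Figure D5:**
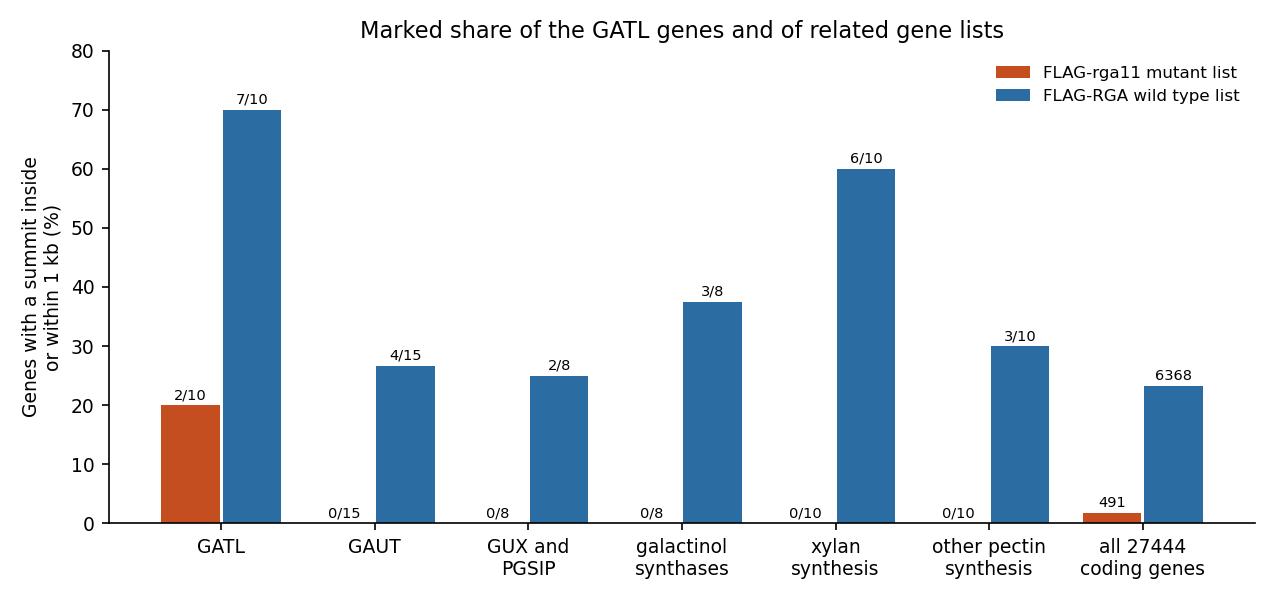
Bars give the percentage of genes with a counted summit in the FLAG-rga11 list (orange) and the FLAG-RGA list (blue) for the GATL genes, 5 related lists and all coding genes, with the number marked above each bar. The orange bar is 2 of 10 for the GATL genes and 1.79% for all coding genes, and the 5 related lists have none. The GATL10 peak was known when the family was taken up, so the orange bars do not set the family apart. In the wild type the GATL genes stand at 7 of 10, xylan synthesis at 6 of 10 and all coding genes at 23.2%.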

How the data were processed

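Per the submitters' processing notes, TAIR10 was the genome build, and the tools named are deepTools 3.1.3, MACS2 2.2.7.1, Bowtie2 2.4.5 and Trimmomatic 0.39. Each deposited peak has a fold (a ratio of ChIP over control coverage at the summit, with a pseudocount of 1), a −log10 p, a −log10 q and a score from the authors' peak caller. The score was not used. Peak numbers run to 778 in the mutant and 7873 in the wild type, so the lists hold part of the called peaks. The lowest −log10 q was 3.01 in the mutant list and 3.00 in the wild-type list, so both lists end near the same q. The sources used here do not say how the peaks were selected.

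ChIP fragments and control levels were solved from each fold and p. The solution came within 0.001 of the −log10 p for 99.8% of mutant and 99.98% of wild-type peaks. The method was tested on simulated peaks made with the same formula. That test checks the solving only, and cannot show that the deposited values follow the formula. Genes and distances came from RefSeq genes on TAIR10.1, whose nuclear chromosomes were taken to share coordinates with TAIR10. All 51 genes of the related lists were found. Members and lists were chosen with earlier results of these data known. Text names all members, and the 3 highest of each related list plus all it marked in the mutant; the other marked genes are named to complete small counts. Motif and protein comparisons were planned and not run, as no sequence was used here. Python 3.11.15, pandas 2.3.3, numpy 2.4.6 and scipy 1.17.1 were used.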

Additional observations from a re-analysis of the deposited data

How the results depend on the processing

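Each count of marked GATL genes was repeated under 7 alternatives. With a −log10 q of at least 5, or of at least 10, the mutant count fell to 1 and the count in both lists to 1, because GATL9 was lost and GATL10 kept. Of all coding genes 1.04% and 0.339% were marked in the mutant list at these values, and 0.732% and 0.175% in both lists. The other 5 alternatives left both counts at 2, with 1.22% to 2.64% of all coding genes marked in the mutant list and 0.834% to 2.03% in both. The wild-type count ran from 5 to 8: it was 6 with a flank of 500 bp (GATL7 lost; 18.7% of all coding genes), 8 with 2 kb (30.3%) or with any base of the peak (24.2%), as GATL4 was gained, 5 inside genes alone (13.2%) and 5 at a −log10 q of at least 10 (6.54%). It stayed 7 at a −log10 q of at least 5 (16.4%) and with the nearest gene only (16.9%). The overlap at GATL10 remained when 50% of the shorter peak, or summits within 200 bp, were asked for. The scaling to the mutant coverage and its alternative were chosen after the data had been seen. No paired analysis was possible because each group had 1 library. With 1 library per line, the part of the scaled coverage in the missing mutant calls was not tested.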
